A study of Homo sapiens with 7 samples.

Results

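The regions described here are 1547 H3K4me2 peaks that lay on H3K36me3 and held no H3K27ac peak in T-47D, a luminal, estrogen receptor-positive breast cancer cell line. They were chosen from the positions of 3 peak lists: an H3K4me2 peak entered when it shared at least 1 bp with an H3K36me3 peak and none with an H3K27ac peak. They made up 2.40% of the 64561 H3K4me2 peaks on chromosomes 1 to 22 and X. The peaks they are set against are the 1095 H3K4me2 peaks that shared bases with both H3K36me3 and H3K27ac. Below, both kinds lie on H3K36me3 and are called the peaks without and with H3K27ac.

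The study was designed to relate histone marks to gene regulation, and it profiled H2A.Z, H3K27ac, H3K27me3, H3K36me3, H3K4me2 and H3K9me3 by chromatin immunoprecipitation and sequencing (ChIP-seq). All libraries came from 1 cell line in growth medium with 10% serum at 70 to 80% confluence, with no treatment or genotype contrast in the labels. Each mark had 1 library, so there is no replicate error, no test was made between groups, and intervals (95%, exact binomial for shares, order-statistic for medians, exact Poisson for densities, and for a share of 0 the limit that 3 counts would give) cover counting error only. Neighbouring peaks are not independent, which makes those intervals too narrow. An input library was also listed and was not analysed here.

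H3K4me2 is a mark of promoters and enhancers, including those in a primed state. H3K27ac, placed by the acetyltransferases CREBBP and EP300, marks the promoters and enhancers that are active. H3K36me3 is placed by SETD2, which travels with elongating RNA polymerase II, so it covers the bodies of transcribed genes. An H3K4me2 peak on H3K36me3 can therefore be a start of a transcribed region that runs into its H3K36me3, or an element within a transcribed gene body. Which of these a region is was not assigned, because a gene annotation and genome sequence of the build of the files (hg19) were not used here.

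The lists labelled H2A.Z and H3K9me3 went against the usual background for those names. Of H3K4me2 peaks off H3K36me3, the list labelled H3K9me3 overlapped 23.6% of those with H3K27ac and 7.503% of those without. The list labelled H2A.Z overlapped 0.0323% and 0.332% of the same groups. Both are named by their labels below, and neither entered the choice of regions. The files hold positions only, with no height or score, and the read depth of the libraries is unknown, so a missing H3K27ac peak means a signal under the authors' threshold and not the absence of the mark.

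H3K4me2 peaks on H3K36me3 lacked H3K27ac less often than H3K4me2 peaks elsewhere. Of the 2642 peaks on H3K36me3, 58.6% had no H3K27ac (56.6 to 60.4). Off H3K36me3 the share was 75.02% (74.7 to 75.4). The same order held among peaks of equal width. Of peaks up to 501 bp, 76.3% on H3K36me3 (73.6 to 78.9) and 86.1% off it (85.7 to 86.5) lacked H3K27ac. From 1 to 2 kb the shares were 39.9% (35.6 to 44.3) and 54.7% (53.7 to 55.7). Over 2 kb they were 31.6% (26.5 to 37.0) and 35.4% (33.6 to 37.3), and these intervals overlap.

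The peaks without H3K27ac were narrow. Their median width was 501 bp (501 to 626), with quartiles at 501 and 835 bp, against a median of 951 bp (900 to 1039) and quartiles at 629 and 1782 bp for the peaks with H3K27ac. The fixed width of 501 bp, the commonest in the lists, was shared by 52.0% of the peaks without H3K27ac (49.5 to 54.6) and by 22.7% of those with it (20.3 to 25.3). Peaks over 2 kb made up 6.59% (5.41 to 7.95) and 20.2% (17.8 to 22.7) of the same groups. A longer peak has more room to meet an H3K27ac peak and more room to meet an H3K36me3 peak, so the choice of regions itself bears on width in both directions. Against H3K4me2 peaks with neither mark, whose median was also 501 bp and of which 55.5% had the fixed width, the peaks without H3K27ac had more wide members, since 2.01% of the peaks with neither mark were over 2 kb (1.88 to 2.14). The peaks at 0 to 1 kb outside H3K36me3 came closer in the share over 2 kb, at 4.18% (3.32 to 5.19), though the intervals still do not overlap. Their median was 627 bp (501 to 629), and 48.6% had the fixed width.

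**Figure D1:**
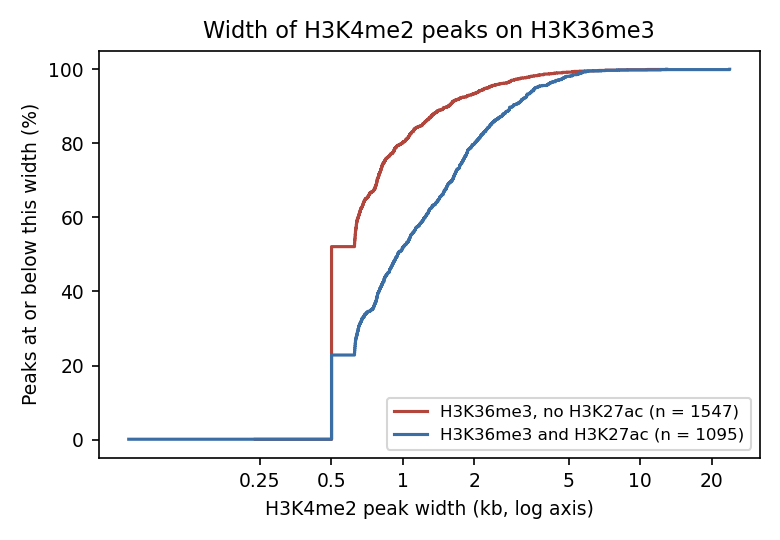
Cumulative percent of H3K4me2 peaks on H3K36me3 (vertical axis) at or below each peak width in kb (horizontal log axis), for the 1547 peaks without H3K27ac and the 1095 peaks with it. The step at 501 bp takes in 52.0% of the peaks without H3K27ac and 22.7% of those with it, and the medians are 501 and 951 bp.

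The 3 widest peaks without H3K27ac reached far beyond H3K36me3. The widest, of 12949 bp on chromosome 10 (95193379 to 95206327), shared 2552 bp with H3K36me3 and lay 3.03 kb from the nearest H3K27ac peak. The next, of 10706 bp on chromosome 11 (62306158 to 62316863), enclosed a single H3K36me3 peak of 501 bp, and its nearest H3K27ac peak was 12.9 kb away. The third, of 8865 bp on chromosome 6 (34498632 to 34507496), shared 2359 bp with H3K36me3 and lay 2.06 kb from H3K27ac. The peaks on chromosomes 10 and 6 each met 2 H3K36me3 domains. The centre lay in no domain for the peaks on chromosomes 10 and 11, and in the less overlapped of its 2 domains for the peak on chromosome 6.

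Position was measured in H3K36me3 domains, that is, H3K36me3 peaks merged across gaps of at most 1 kb. There were 41909 domains with a median length of 881 bp, and 33.9% of them were single stretches of 501 bp. The peaks without H3K27ac lay in 1467 domains with a median length of 1968 bp (quartiles 641 and 6473 bp), and those with H3K27ac in 1049 domains of median 2573 bp (quartiles 762.5 and 7002 bp). Most domains held a single peak without H3K27ac (1399 domains), 60 held 2 and 8 held 3 or more. Domains of at most 501 bp held 22.8% of the peaks without H3K27ac and 18.6% of those with it, and domains of 5 kb or more held 30.6% and 34.5%.

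Over all domains, an edge was the commonest position in both groups. Of the peaks without H3K27ac, 55.9% lay across a domain edge (53.4 to 58.4), 37.6% lay wholly inside a domain (35.1 to 40.02) and 6.53% enclosed a whole domain (5.35 to 7.88). Of the peaks with H3K27ac, 67.6% lay across an edge (64.7 to 70.3), 22.1% lay inside (19.7 to 24.7) and 10.3% enclosed a domain (8.58 to 12.3). The peak centre was inside the domain for 66.3% of the peaks without H3K27ac and for 47.7% of those with it. H3K36me3 peaks covered a median of 65.9% of a peak without H3K27ac and 41.5% of a peak with it.

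The gap in position was widest in long domains. In domains over 20 kb, 81.6% of the 87 peaks without H3K27ac were wholly inside (71.9 to 89.1), against 35.6% of the 59 peaks with H3K27ac (23.6 to 49.1). From 5 to 20 kb the shares were 64.2% (59.2 to 69.0) and 39.5% (34.1 to 45.1), and from 2 to 5 kb they were 52.9% (47.01 to 58.7) and 26.8% (21.1 to 33.1). In domains of at most 501 bp a peak can hardly be inside, and 1 of 352 and 0 of 204 were. In domains of 5 kb or more, inside was the commonest position without H3K27ac (67.4%, against 32.6% across an edge). With H3K27ac an edge remained the commonest there (61.1%, against 38.9% inside).

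Part of this gap went with peak width. Among peaks of at most 501 bp in domains of 5 kb or more, 81.1% of those without H3K27ac (75.9 to 85.7, n = 265) and 74.7% of those with it (64.8 to 83.1, n = 95) were wholly inside, and the intervals overlap. Peak centres were inside for 89.4% and 89.5% of the same peaks. Between 501 bp and 1 kb the shares wholly inside were 64.9% (56.1 to 73.0, n = 131) and 42.0% (33.0 to 51.4, n = 119), with intervals that do not overlap. From 1 to 2 kb they were 32.1% (19.9 to 46.3) and 20.2% (13.2 to 28.7). Over all domains, peaks of at most 501 bp were wholly inside in 49.9% of cases without H3K27ac (46.4 to 53.4) and in 51.6% with it (45.2 to 57.9). Between 501 bp and 1 kb these shares were 35.6% (31.1 to 40.2) and 25.2% (20.5 to 30.3). From 1 to 2 kb they were 10.8% (6.92 to 15.9) and 9.15% (6.17 to 13.0), and over 2 kb they were 1.96% (0.238 to 6.90) and 2.26% (0.739 to 5.201). Over all domains the intervals of the 2 groups thus overlapped in 3 of the 4 width classes.

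**Figure D2:**
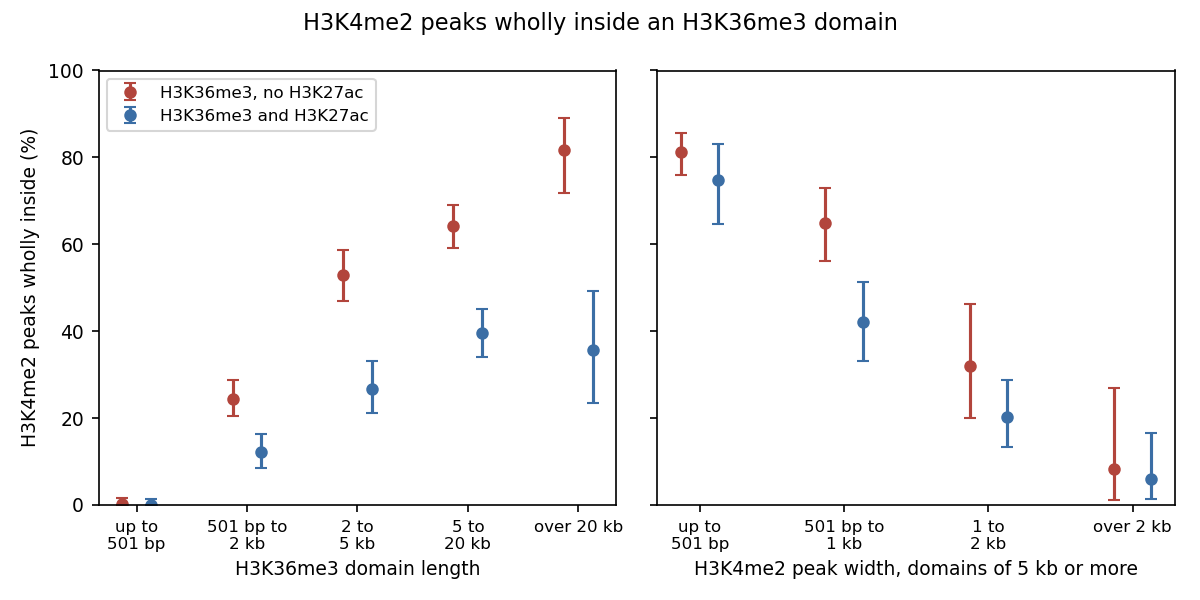
Percent of H3K4me2 peaks wholly inside an H3K36me3 domain (vertical axis), by domain length (left) and, in domains of 5 kb or more, by H3K4me2 peak width (right), for peaks without H3K27ac (red) and with it (blue). Bars are 95% exact binomial intervals (at 0%, the limit of 3 counts); in domains over 20 kb the shares are 81.6% and 35.6%, while for peaks of at most 501 bp in the right panel they are 81.1% and 74.7%.

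Measured as a distance, the centre of a peak without H3K27ac lay a median of 176 bp inside the nearest edge (152.5 to 203.5), and that of a peak with H3K27ac lay at the edge, with a median of -21 bp (-62.5 to 11.5), where a negative value is outside. In domains of 5 kb or more the medians were 991.5 bp (694.5 to 1276) and 132 bp (21.5 to 257). Centres more than 2 kb inside were found for 171 peaks without H3K27ac (11.1%) and for 69 with it (6.30%), and more than 5 kb inside for 53 and 16.

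Both kinds thinned out from the edge inward. In domains of 5 kb or more, centres of peaks without H3K27ac numbered 14.9 per Mb in the first 0.5 kb (11.8 to 18.5), 6.52 per Mb from 1 to 2 kb (5.08 to 8.23), 3.41 per Mb from 5 to 10 kb (2.41 to 4.67) and 2.70 per Mb deeper than 10 kb (1.51 to 4.45). The peaks with H3K27ac numbered 13.8 per Mb (10.8 to 17.3), 3.44 per Mb (2.43 to 4.75), 0.807 per Mb (0.369 to 1.53) and 1.26 per Mb (0.506 to 2.59) in the same zones. The last of these rests on 7 peaks. H3K27ac peaks as a whole thinned out less, with 38.0 per Mb in the first 0.5 kb and 24.6 per Mb deeper than 10 kb.

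The share of H3K4me2 peaks without H3K27ac differed with depth. It was 47.7% where the centre lay outside the domain (44.7 to 50.7, n = 1095), 64.6% in the first 0.5 kb (61.4 to 67.7, n = 907) and 76.8% more than 5 kb inside (65.1 to 86.1, n = 69). Among peaks of at most 501 bp there was no such order: 77.3% lacked H3K27ac with the centre outside (71.5 to 82.5), 75.3% in the first 0.5 kb (71.1 to 79.2), 72.4% from 1 to 2 kb (62.8 to 80.7) and 82.6% more than 5 kb inside (68.6 to 92.2). Among wider peaks it was 39.4% with the centre outside (36.2 to 42.8), 54.0% in the first 0.5 kb (49.4 to 58.7), 55.9% from 0.5 to 1 kb (46.5 to 65.1), 62.5% from 1 to 2 kb (50.3 to 73.6), 50.8% from 2 to 5 kb (37.5 to 64.1, n = 59) and 65.2% more than 5 kb inside (42.7 to 83.6, n = 23). The values inside the edge had overlapping intervals and no steady order.

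**Figure D3:**
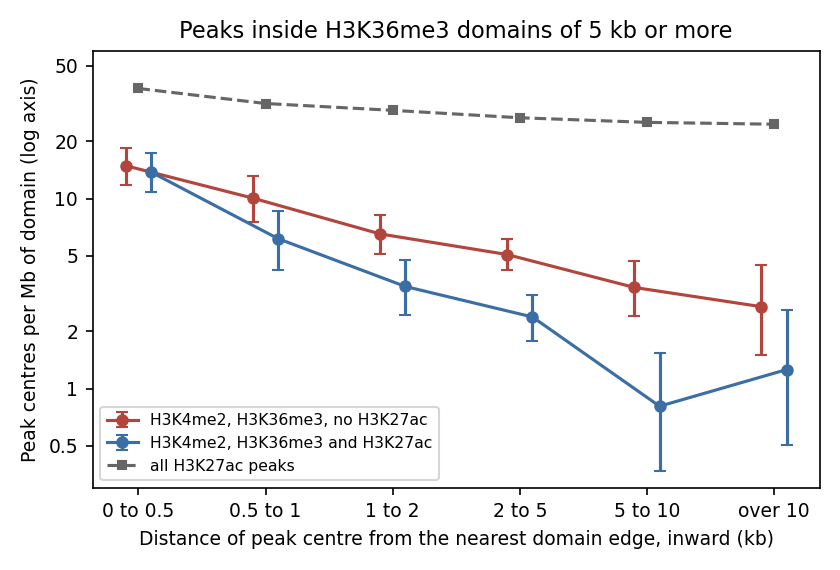
Peak centres per Mb of H3K36me3 domain (vertical log axis) in zones of distance inward from the nearest edge (horizontal axis, kb), in domains of 5 kb or more. Points are H3K4me2 peaks without H3K27ac (red) and with it (blue) with 95% exact Poisson intervals, and the dashed line is all H3K27ac peaks; the red points run from 14.9 to 2.70 per Mb, the blue from 13.8 to 1.26, and the dashed line from 38.0 to 24.6.

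The deepest peaks without H3K27ac lay in domains of over 20 kb. On chromosome 9 a 501 bp peak (131244584 to 131245084) had its centre 21.8 kb from the nearest edge of a 44.8 kb domain, with an H3K27ac peak 1.35 kb away but no other H3K4me2 peak within 21.0 kb. On chromosome 3 a 501 bp peak (133336887 to 133337387) was 19.0 kb inside a 61.0 kb domain and 11.7 kb from H3K27ac. On chromosome 11 a 791 bp peak (118249828 to 118250618) was 16.6 kb inside a 34.3 kb domain, and its nearest H3K27ac peak was 18.9 kb away. Of these 3, only the first had H3K27ac within 5 kb.

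Long domains that held a peak without H3K27ac also held H3K27ac elsewhere more often than other domains. Of the 5371 domains of 5 kb or more, 415 held at least 1 such peak, and 45.3% of these overlapped an H3K27ac peak (40.4 to 50.2), against 21.4% of the 4956 domains without one (20.3 to 22.6). The difference was also present among domains of like length, with 37.9% (31.2 to 44.99) and 16.0% (14.7 to 17.3) from 5 to 10 kb, and 65.8% (53.7 to 76.5) and 44.4% (39.9 to 48.9) at 20 kb or more. An H3K4me2 peak with H3K27ac was present in 15.7% (12.3 to 19.5) and 5.69% (5.06 to 6.37) of the same domains. The 4956 domains were not chosen for holding any H3K4me2 peak, and 282 of them held one with H3K27ac. The comparison therefore does not separate the presence of H3K4me2 in a domain from its lack of H3K27ac, which was not tested.

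The domain with the most peaks of this kind lay on chromosome 3 (133293787 to 133309554, 15.8 kb) and held 5 of them. They lay 5.28 to 13.9 kb from its start. One H3K27ac peak crossed the start of the domain and ended 3.89 kb inside, and another lay from 11.2 to 11.9 kb and met the domain's only H3K4me2 peak with H3K27ac. Of the 5 peaks without H3K27ac, 3 lay between these H3K27ac peaks and 2 beyond the second. Domains on chromosome 2 (238401185 to 238408787, 7.603 kb) and chromosome 14 (21724848 to 21735197, 10.35 kb) held 4 each. Neither overlapped an H3K27ac peak, and their peaks without H3K27ac lay 4.07 to 10.2 kb and 2.04 to 11.3 kb from the nearest one.

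**Figure D4:**
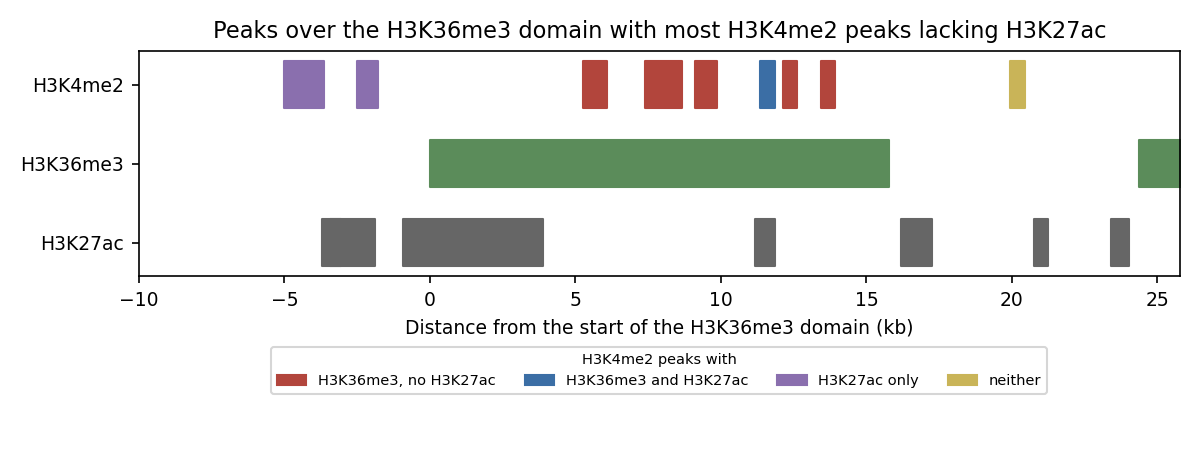
H3K4me2, H3K36me3 and H3K27ac peaks (rows) along the H3K36me3 domain on chromosome 3 with the most H3K4me2 peaks lacking H3K27ac, drawn to scale with the distance in kb from the start of the 15.8 kb domain on the horizontal axis. The 5 red peaks lie inside the domain, 3 of them between its 2 H3K27ac peaks and 2 beyond the second, which the blue peak meets.

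H3K27ac was near these peaks although it did not touch them. The nearest H3K27ac peak was a median of 3.702 kb away (3.239 to 4.201, quartiles 1.35 and 12.6 kb), against 22.3 kb (21.8 to 22.8) for H3K4me2 peaks with neither H3K27ac nor H3K36me3. One lay within 5 kb of 56.0% of the peaks on H3K36me3 (53.5 to 58.5) and of 25.7% of the peaks with neither mark (25.3 to 26.1). Only 25 were within 100 bp of an H3K27ac peak, and 24 were more than 100 kb from one. Counting only H3K27ac peaks that do not overlap the H3K4me2 peak itself, the share within 5 kb was close in the 2 groups on H3K36me3, at 56.0% for peaks without H3K27ac and 57.8% for peaks with it (54.8 to 60.8). Within 1 kb the shares were 19.5% (17.6 to 21.6) and 13.6% (11.6 to 15.8). H3K27ac itself divided the groups, and the peaks with it had their overlapping H3K27ac peaks left out of these counts. At any distance, these shares therefore cannot show a difference between the groups apart from the choice of regions. Within 10 kb the shares were 70.3% (68.0 to 72.6) and 73.7% (71.0 to 76.3).

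Nearness to H3K27ac fell with distance outside H3K36me3, and the step at its border was small. Among H3K4me2 peaks without H3K27ac, one lay within 5 kb of 53.8% of peaks whose centre was over 1 kb inside a domain (47.9 to 59.6, n = 292) and of 56.6% of the others on H3K36me3 (53.8 to 59.3). Off H3K36me3 the share was 50.1% at 0 to 1 kb from it (47.8 to 52.4, n = 1866), 47.2% at 1 to 5 kb, 39.2% at 5 to 20 kb, 24.1% at 20 to 100 kb and 12.6% farther away (12.1 to 13.1). The intervals of the 56.6% and the 50.1% do not overlap, while that of the 53.8% overlaps both.

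Where a peak without H3K27ac lay across the edge of a domain of 5 kb or more, its neighbours were mostly on the outer side. Of these 154 peaks, 49.4% had an H3K27ac peak within 5 kb outward (41.2 to 57.5) and 26.0% had one within 5 kb inward (19.2 to 33.6). The 231 peaks with H3K27ac at such edges had a further H3K27ac peak outward in 34.2% (28.1 to 40.7) and inward in 30.7% (24.9 to 37.1). Their overlapping H3K27ac peaks were left out, so these shares are not a like comparison with peaks chosen to lack H3K27ac. Another H3K4me2 peak lay within 5 kb outward of 52.6% of the peaks without H3K27ac (44.4 to 60.7) and inward of 10.4% (6.06 to 16.3), and for the peaks with H3K27ac these were 51.1% (44.4 to 57.7) and 12.1% (8.21 to 17.0).

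Other H3K4me2 peaks were common around both kinds. Another one lay within 5 kb of 62.4% of the peaks without H3K27ac (59.9 to 64.8), of 67.0% of those with it (64.2 to 69.8) and of 44.9% of H3K4me2 peaks with neither mark (44.4 to 45.3). Outside H3K36me3 the share was 56.9% at 0 to 1 kb from it (54.6 to 59.2), 58.3% at 1 to 5 kb (56.9 to 59.7) and 59.3% at 5 to 20 kb (58.2 to 60.3), among H3K4me2 peaks without H3K27ac. On H3K36me3 it was 55.5% for peaks without H3K27ac whose centre was over 1 kb inside (49.6 to 61.3) and 64.0% for the others (61.3 to 66.6), so those deep inside were about as crowded as peaks a few kb outside. The median gap was 3.15 kb (2.82 to 3.50), 2.47 kb (2.23 to 2.84) and 6.33 kb (6.18 to 6.47) for peaks without H3K27ac, peaks with it and peaks with neither mark. The nearest H3K4me2 peak carried H3K27ac in 36.6% of cases for peaks without H3K27ac (34.2 to 39.0) and in 53.2% for peaks with it (50.2 to 56.2), where 25.7% of all H3K4me2 peaks carry it. It was another H3K4me2 peak on H3K36me3 without H3K27ac in 15.9% of cases (14.1 to 17.8) for peaks without H3K27ac and in 11.6% (9.76 to 13.6) for peaks with it. For H3K4me2 peaks without H3K27ac at 0 to 1 kb outside H3K36me3, these 2 shares were 32.8% (30.7 to 35.0) and 13.1% (11.6 to 14.7). Their intervals overlap those of the peaks on H3K36me3 without H3K27ac.

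The H3K27ac peaks near these regions were on H3K36me3 themselves about as often as those near H3K4me2 peaks just outside it. Among the 867 peaks without H3K27ac that had one within 5 kb, the nearest overlapped H3K36me3 in 36.9% of cases (33.7 to 40.2) and lay in the same domain in 24.7% (21.8 to 27.7). It overlapped H3K4me2 in 42.1% (38.8 to 45.5). For the 935 H3K4me2 peaks without H3K27ac at 0 to 1 kb outside H3K36me3 that had an H3K27ac peak within 5 kb, the nearest overlapped H3K36me3 in 32.6% (29.6 to 35.7) and H3K4me2 in 38.7% (35.6 to 41.9), and these intervals overlap those of the peaks on H3K36me3. Of all H3K27ac peaks, 12.9% overlapped H3K36me3 (12.5 to 13.3). For all H3K4me2 peaks with neither mark and an H3K27ac peak within 5 kb, the nearest ones overlapped H3K36me3 in 6.08% (5.66 to 6.52) and H3K4me2 in 46.9% (46.0 to 47.7).

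The extremes show the range of surroundings. The most isolated from H3K27ac was a 501 bp peak on chromosome 22 (33732106 to 33732606) inside a 3.19 kb domain, 513 kb from the nearest H3K27ac peak. A 501 bp peak on chromosome 3 (16320669 to 16321169) inside a 4.87 kb domain was 419 kb away, and one on chromosome 10 (129142888 to 129143388) on a lone 501 bp H3K36me3 peak was 364 kb away. The closest lay 8 bp from H3K27ac on chromosome X (153198553 to 153200038) and 9 bp from it on chromosomes 5 (40833237 to 40833863) and 7 (148851645 to 148852145).

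No peak without H3K27ac overlapped H3K27me3 or the list labelled H2A.Z, and few overlapped the list labelled H3K9me3. For each of the first 2 lists it was 0 of 1547, which allows a share of up to 0.194% (3 counts of the total), and the same was found for 0 of 1095 peaks with H3K27ac, which allows up to 0.274%. H3K4me2 peaks with neither mark overlapped H3K27me3 in 1.62% of cases (1.51 to 1.74) and the list labelled H2A.Z in 0.332% (0.281 to 0.388). Overlap was as low close to H3K36me3, where 0 of 1866 H3K4me2 peaks without H3K27ac at 0 to 1 kb outside it overlapped either list, which allows up to 0.161%. H3K27me3, the mark of Polycomb repression, had its nearest peak a median of 179.8 kb from the peaks without H3K27ac (169.5 to 192.2) and 179.2 kb from those with it (164.4 to 190.9).

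The list labelled H3K9me3 overlapped 19 of the peaks without H3K27ac (1.23%, 0.741 to 1.91) and 72 of those with it (6.58%, 5.18 to 8.21). The overlaps were mostly on wide peaks, with 16 of 305 over 1 kb (5.25%, 3.03 to 8.38) against 66 of 527 with H3K27ac (12.5%, 9.82 to 15.7). Among peaks without H3K27ac, none of the 292 with the centre over 1 kb inside a domain overlapped it (up to 1.03% by the same limit of 3 counts), and 1.51% of the others did (0.914 to 2.35). These 2 groups were not matched for width, since 69.2% of the 292 and 48.0% of the others had the fixed width. Just outside H3K36me3 the share was 3.64% at 0 to 1 kb (2.84 to 4.60), and it was 8.76% at 1 to 5 kb (7.97 to 9.59) and 7.89% beyond 100 kb (7.495 to 8.29). Among the peaks on H3K36me3 without H3K27ac, the one that shared most bases with this list was on chromosome 10 (104004329 to 104008063), with 1543 bp. The next ones, on chromosome 1 (154244286 to 154246600) and chromosome 16 (28856300 to 28859027), shared 1203 and 898 bp with it. All 3 were over 2 kb wide and crossed a domain edge with the centre outside.

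**Figure D5:**
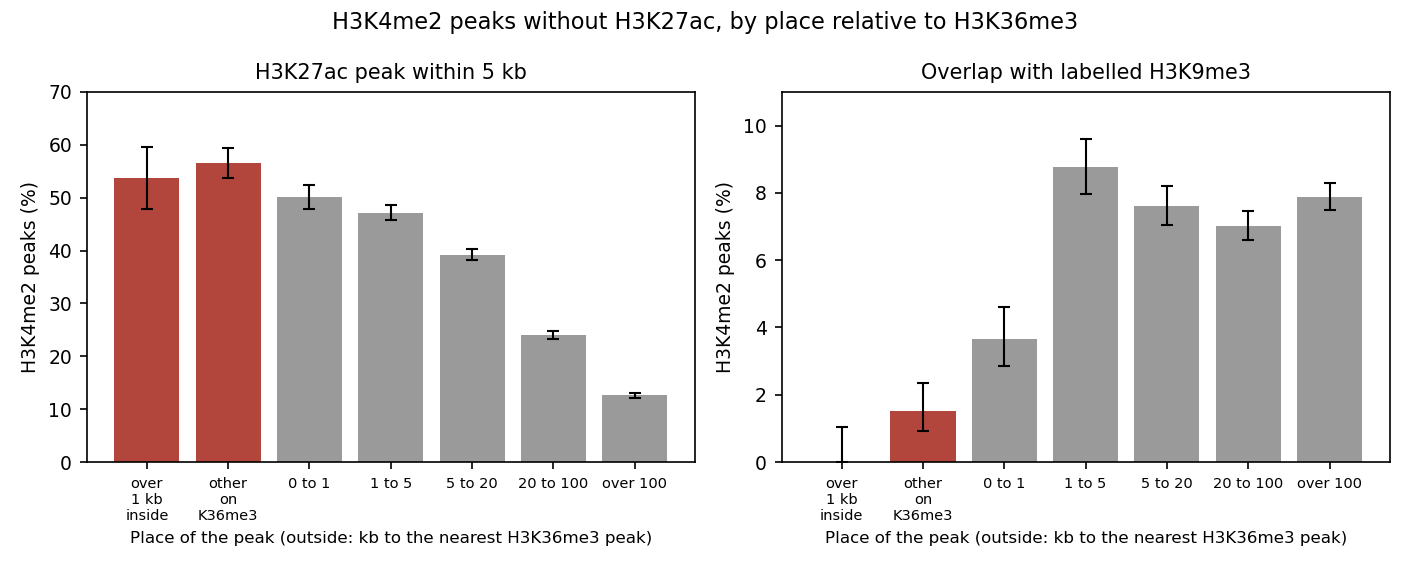
Percent of H3K4me2 peaks without H3K27ac (vertical axes) that had an H3K27ac peak within 5 kb (left) or overlapped the list labelled H3K9me3 (right), by place relative to H3K36me3 (horizontal axes: red bars on H3K36me3, grey bars by kb outside it), with 95% exact binomial intervals (at 0%, the limit of 3 counts). On the left the bars go from 53.8% over 1 kb inside to 12.6% beyond 100 kb, and on the right from 0% to 7.89% with the highest bar, 8.76%, at 1 to 5 kb outside. The bars are not matched for peak width.

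Some regions were chosen by very few bases. A peak on chromosome 13 (28001490 to 28001990) shared only 2 bp with H3K36me3. Peaks on chromosomes 7 (56019508 to 56021121) and 2 (131101170 to 131101670) shared 3 and 4 bp, and 84 of the 1547 shared at most 50 bp. Just outside the rule, H3K4me2 peaks on chromosomes 6 (111921413 to 111922392) and 7 (140395716 to 140396216) bordered H3K36me3 at a gap of 0 bp without sharing a base. One on chromosome 18 (12336659 to 12337159) was 1 bp away. On the H3K27ac side, an H3K4me2 peak on chromosome 19 (8520575 to 8521075) was kept out by an overlap of 1 bp. Overlaps of 2 and 6 bp kept out peaks on chromosomes 8 (67833346 to 67835155) and 6 (17288567 to 17289067).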

How the data were processed

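ChIP-seq of T-47D cells gave 6 deposited peak lists, 1 per mark, each with chromosome, start, end and a name. These lists, as deposited by the authors, have no column of heights, scores, counts or p-values. The submitters' processing notes name HOMER 4.2, Bowtie2 2.1.0, hg19 and GRCh37 without giving roles. How peaks were called, whether the input was subtracted and how deep each library was are not given in these notes or in the deposited labels, so peak numbers depend on depth and threshold.

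Only rows on chromosomes 1 to 22 and X entered. Overlap was at least 1 bp, and coordinates are hg19, 1-based. H3K36me3 domains, and the Mb counted in them, include merged gaps of up to 1 kb, so 127 peaks called inside lay partly in a gap. A peak on several domains (15 without H3K27ac) was placed in the one it overlapped most, and its distances were measured there. The interval code was tested on simulated data. The regions, groups and alternatives were chosen with earlier results of these data known. Named regions are the 3 extremes of width, depth, distance to H3K27ac, overlap with other lists and crowding in a domain, and those nearest the limits of the rule. The planned gene lists were not used. Copy number was not corrected. Python 3.11.15, numpy 2.4.6, pandas 2.3.3, scipy 1.17.1 and matplotlib 3.10.9 were used.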

Additional observations from a re-analysis of the deposited data

Results flagged for a closer look

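H3K4me2 rows outside chromosomes 1 to 22 and X, which no comparison above uses, also met the rule of H3K36me3 without H3K27ac, above the limit that a count of 0 allows. They were 20 of 174 such rows (11.5%, exact binomial interval 7.16 to 17.2), against 2.40% on chromosomes 1 to 22 and X. Of the 20, 13 were on unplaced contigs and 6 on contigs assigned to a chromosome without a position. How reads were placed on these contigs is not given in the sources used here.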

How the results depend on the processing

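The peaks without H3K27ac numbered 1189 where the overlap had to reach 50% of the shorter peak, 1245 with no H3K27ac within 1 kb, and 530 when each list was limited to the peaks above its median width (wider peaks below). The 50% limit applied to H3K27ac too, so the 1189 could include peaks with a shorter H3K27ac overlap. Likewise, the 530 could touch narrower H3K27ac peaks that the width limit left out. The share wholly inside a domain was 48.5% at 50% overlap, 29.1% among wider peaks, 29.3% with unmerged H3K36me3 peaks, 55.0% with merging within 3 kb and 67.4% in domains of 5 kb or more. The median distance of the centre from the edge was 283.5, 37.25, 121.5, 428.5 and 991.5 bp in the same order. Both measures stayed above those of the peaks with H3K27ac under all 7 alternatives run, but none of these matched the groups for peak width. At like width over all domains, the shares wholly inside had overlapping intervals in every class except 501 bp to 1 kb (35.6% and 25.2%). With no H3K27ac within 1 kb, the group set against them grew to 1397 and took in peaks that do not touch H3K27ac. The median width was 921.5 bp among wider peaks, and it stayed below that of the peaks with H3K27ac under all 4 alternatives. H3K27ac within 5 kb was found for 60.7% at 50% overlap, where peaks with a shorter H3K27ac overlap count as near by the setting itself. It was found for 40.6% among wider peaks, where narrower H3K27ac peaks are not counted. With no H3K27ac within 1 kb it was 45.4%, where the setting itself removes the nearest. An H3K27ac peak within 10 kb was found for 70.3%. Another H3K4me2 peak within 5 kb was found for 46.98% among wider peaks, 58.6% with no H3K27ac within 1 kb and 79.1% within 10 kb. Among wider peaks this share was no longer below that of the peaks with H3K27ac (45.3%). The causes of these shifts were not tested. Autosomes alone gave 1524 peaks without H3K27ac, a count that has no interval, and changed none of the other values beyond their intervals. No paired analysis was possible because each mark had 1 library. Without scores or depth, peaks could not be ranked by strength.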

Other observations

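By chromosome, H3K4me2 peaks on H3K36me3 without H3K27ac made up 4.03% of the H3K4me2 peaks on chromosome 16 (3.20 to 4.99, exact binomial) and 3.98% on chromosome 17 (3.31 to 4.72), the highest shares of the 23 chromosomes. They made up 0.772% on chromosome 13 (0.371 to 1.42) and 1.11% on chromosome 18 (0.532 to 2.02), the lowest. H3K4me2 peaks on H3K36me3 of both kinds were spread in a like way. They were 138 of 1962 on chromosome 16 and 213 of 3094 on chromosome 17, against 19 of 1295 on chromosome 13 and 16 of 904 on chromosome 18. Of these, 57.2%, 57.7%, 52.6% and 62.5% lacked H3K27ac, beside 58.6% over all chromosomes. The share of peaks on H3K36me3 that lacked H3K27ac ran from 49.7% on chromosome 19 (41.4 to 57.9, n = 151) to 70.3% on chromosome 15 (60.4 to 79.0, n = 101), and 92 H3K36me3 domains held both a peak without and a peak with H3K27ac.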
